A study of Ovis aries with 12 samples.

Results

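Collagen and laminin chains form the fibrils and the sheets on which epithelia rest, and their genes were followed in sheep (Ovis aries) oviduct epithelial cells after oestradiol. Every gene of the deposited expression table was taken whose symbol reads COL, a number, A and a number, or LAMA, LAMB or LAMC and a number. This gave 44 of 18340 genes, namely 11 fibrillar collagen chains, 6 chains of type IV collagen, 11 laminin chains and 16 other collagen chains. By their RefSeq names COL6A1 and COL7A1 stood in the table without a symbol, and both were left out by the rule (mean 0.0365 and 0.0531 FPKM). RNA was sequenced from mucosal epithelial cells of the ampulla, the wide part of the oviduct, which had been scraped off after trypsin and kept for 12 h without serum or phenol red. Oestradiol at 1e-08 M was then given for 0, 1.5, 3.5 or 5.5 h, with 3 libraries at each time, 12 in all. The 0 h libraries are the controls. None of the 12 libraries is labelled as cells kept without oestradiol for 1.5 h or longer, so oestradiol and time in culture cannot be told apart. The labels number the libraries 1 to 3 at each time and do not say whether a number marks an animal, a culture or a day, and a p-value therefore covers the spread among the sequenced libraries, which may be technical.

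Collagens are secreted as chains that wind around each other into a helix, and the fibrillar types then line up into the fibrils of connective tissue. Type IV collagen instead makes a flat network, and laminins, each of an alpha, a beta and a gamma chain, make the sheet of the basement membrane that touches the cell. The mucosa of the oviduct is a folded epithelium on such a membrane over a thin connective tissue, and ovarian steroids are known to act on its cells. RNA of bulk samples is described here, in which fewer cells of a type and less RNA per cell cannot be told apart.

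The libraries held 48490974 to 79387070 counts in genes. A count of 0 allows up to 3 counts, which is 0.0378 CPM (counts scaled to library size) in the deepest library and 0.0619 CPM in the shallowest, for counting error only. Libraries of the same number resembled each other across times, and those numbered 3 at 0, 3.5 and 5.5 h stood apart from numbers 1 and 2. The 1.5 h library numbered 3 correlated with the others of its number at 0.218 or more over all tested genes (deviations from group means). Pairs of different numbers lay at −0.600 to 0.331, so a value of 0.218 does not by itself tie that library to its number. In chains such as COL1A1 and COL4A1 that library did not share the low level of the others numbered 3, so results are given with and without it. Epithelial markers were high in all 12 libraries, for example KRT8 at 3355 to 5695 FPKM and EPCAM at 592 to 1090.5 FPKM (6 of 7 markers matched). OVGP1, the oviduct glycoprotein of secretory cells, was at 0.0790 to 0.885 FPKM, and FOXJ1, the regulator of motile cilia, at 0 to 0.209 FPKM, so both were at or near 0. The other matched markers of secretory cells, PAX8 and MSX1, were at 26.1 to 44.4 FPKM and 2.22 to 6.33 FPKM, and RSPH1 of cilia was at 10.6 to 17.5 FPKM, while the other cilia markers CCDC78, TEKT1 and DNAI1 stayed below 1 FPKM in every library.

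Laminin chains were among the most abundant of the 44, and few fibrillar or other chains reached a comparable level. Levels are in FPKM (fragments divided by transcript length and by library size), which can be compared between genes. Of the 44 chains, 17 had a mean of at least 10 FPKM over the 12 libraries, 8 of them laminin chains, 4 other collagens, 3 type IV chains and 2 fibrillar chains. LAMB3 averaged 283 FPKM, LAMA3 255 FPKM, COL8A1 155 FPKM and COL5A2 115 FPKM. Another 19 chains averaged below 1 FPKM, 14 of them below 0.1 FPKM, and 13 were listed at 0 in at least 1 library. The 25 chains with a mean of at least 1 FPKM could be tested between times, 6 fibrillar, 5 of type IV, 8 laminin and 6 other.

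**Figure D1:**
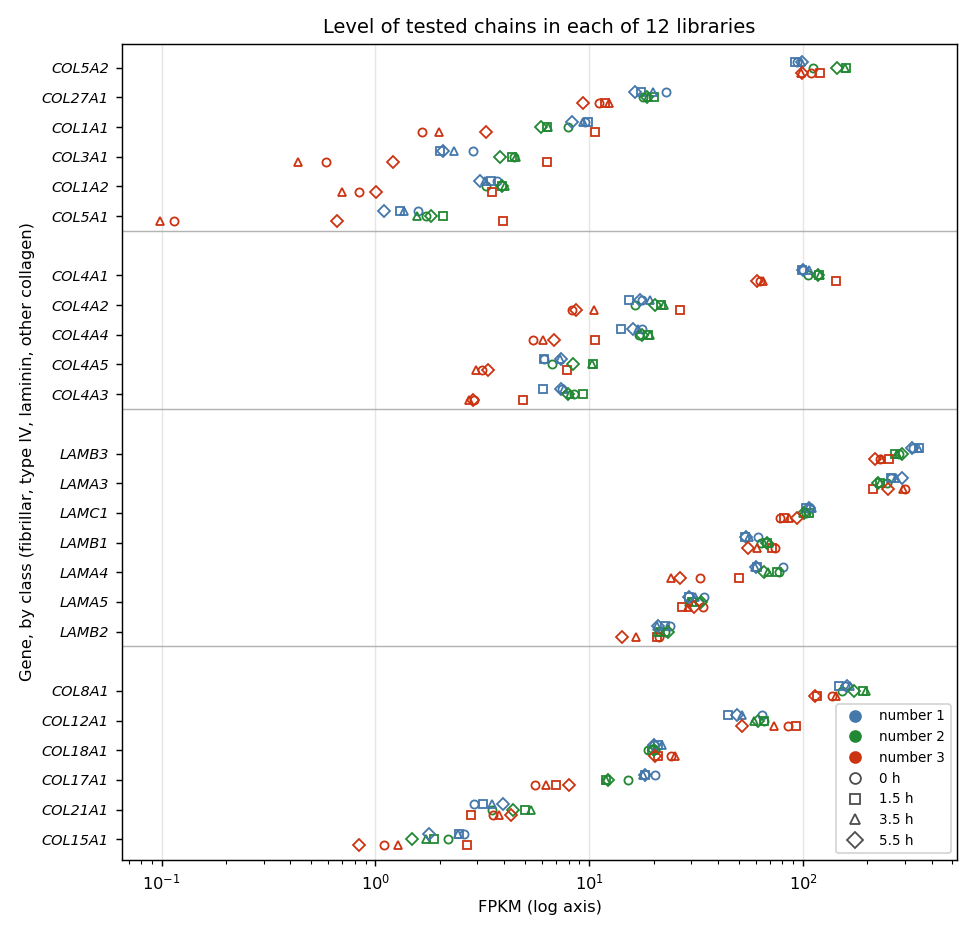
Level of tested chains in the 12 libraries, as FPKM on a log axis, grouped by class. Colour gives the replicate number and shape the time; LAMA3 lies within 212 to 301 FPKM in every library, while COL5A1 ranges from 0.0977 to 3.96 FPKM, with 3 libraries numbered 3 at the low end.

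LAMA3 and LAMB3 are chains of the laminin that anchors epithelia at hemidesmosomes, the points where keratin filaments are tied to the basement membrane. Values are given for numbers 1, 2 and 3 in that order throughout. LAMB3 (chromosome 12, 71807820 to 71847698, in the coordinates of the authors' table) had 328, 282 and 229 FPKM at 0 h, 351, 269.9 and 252 at 1.5 h, 344, 275 and 232 at 3.5 h and 325, 291 and 217 at 5.5 h. At every time number 1 was highest, number 2 lay between and number 3 was lowest. LAMA3 (chromosome 23, 32998185 to 33254634) had 257, 247 and 301 FPKM at 0 h, 259, 229 and 212 at 1.5 h, 271, 229 and 294 at 3.5 h and 289, 224 and 248 at 5.5 h. Here number 3 was highest at 0 and 3.5 h and lowest at 1.5 h, and all 12 values lay within a 1.42-fold range.

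LAMC1, LAMB1 and LAMA4 lay lower than LAMA3 and LAMB3. LAMC1 (chromosome 12, 62163057 to 62283591), the gamma chain of most other laminins, had 108, 104 and 78.4 FPKM at 0 h, 103, 107 and 81.6 at 1.5 h, 110.1, 100.2 and 85.8 at 3.5 h and 107, 101 and 93.3 at 5.5 h. Number 3 was the lowest at each time. LAMB1 (chromosome 4, 48983437 to 49060031), a beta chain found in many basement membranes, had 61.3, 63.8 and 73.9 FPKM at 0 h, 53.8, 67.8 and 71.4 at 1.5 h, 56.0, 69.1 and 61.1 at 3.5 h and 54.2, 67.9 and 55.5 at 5.5 h. It varied by 1.37-fold over the 12 libraries and was lowest in number 1 at each time. LAMA4 (chromosome 8, 25298969 to 25445606), the alpha chain typical of vessel and muscle basement membranes, had 80.7, 77.0 and 32.9 FPKM at 0 h, 61.1, 75.4 and 50.1 at 1.5 h, 59.5, 68.6 and 24.0 at 3.5 h and 60.2, 66.0 and 26.5 at 5.5 h. The libraries numbered 3 were below those numbered 1 and 2 at all 4 times.

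LAMA5 (chromosome 13, 54200422 to 54247219), the main alpha chain of mature epithelial basement membranes, had 34.5, 32.6 and 34.1 FPKM at 0 h, 29.4, 30.4 and 27.3 at 1.5 h, 31.4, 29.2 and 29.0 at 3.5 h and 29.3, 33.3 and 30.9 at 5.5 h. It was the steadiest of the tested chains, within a 1.26-fold range. LAMB2 (chromosome 19, 50828962 to 50841070), a beta chain known from kidney and nerve-muscle junctions, had 23.8, 22.6 and 21.3 FPKM at 0 h, 22.6, 21.5 and 20.8 at 1.5 h, 20.6, 20.7 and 16.5 at 3.5 h and 21.0, 23.3 and 14.2 at 5.5 h. Its lowest 2 values were those of number 3 at 3.5 and 5.5 h. LAMA1, the alpha chain of early embryos, LAMA2, that of muscle fibres, and LAMC3 averaged 0.00701, 0.00261 and 5.5e-04 FPKM. LAMC3 had 3 counts in 1 library and 0 in the others, and LAMB4 was not matched.

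Type IV collagen chains were led by COL4A1, and 5 of 6 could be tested. COL4A1 and COL4A2 are the chains of the network found in nearly all basement membranes, and their genes lay head to head on chromosome 10, 76.3 kb apart. COL4A1 (chromosome 10, 84218174 to 84267989) had 100.4, 105 and 62.9 FPKM at 0 h, 99.4, 119 and 143 at 1.5 h, 107, 119.8 and 64.7 at 3.5 h and 99.6, 118 and 60.6 at 5.5 h. COL4A2 (chromosome 10, 84344246 to 84506524) had 17.7, 16.3 and 8.30 FPKM at 0 h, 15.4, 21.6 and 26.5 at 1.5 h, 19.2, 22.4 and 10.5 at 3.5 h and 17.2, 20.3 and 8.69 at 5.5 h. Both were lowest in number 3 at 0, 3.5 and 5.5 h, and both were highest of all in number 3 at 1.5 h. COL4A3, COL4A4 and COL4A5 are the chains of the network known from the kidney filter. COL4A4 (chromosome 2, 228280832 to 228412323) had 17.6, 17.1 and 5.47 FPKM at 0 h, 14.1, 18.9 and 10.7 at 1.5 h, 16.8, 19.2 and 6.06 at 3.5 h and 16.1, 17.6 and 6.81 at 5.5 h. COL4A3, its head-to-head neighbour at 15.3 kb, ranged over 2.74 to 9.39 FPKM. COL4A5 (chromosome X, 119483738 to 119735405) had 6.15, 6.71 and 3.13 FPKM at 0 h, 6.15, 10.5 and 7.88 at 1.5 h, 7.30, 10.3 and 2.94 at 3.5 h and 7.41, 8.41 and 3.37 at 5.5 h. These 3 chains were lowest in number 3 at each time, apart from COL4A5 at 1.5 h, where number 1 was lowest. COL4A6, which lies 1616 bases from COL4A5 in the opposite direction, averaged 0.586 FPKM and was not tested. Together the 6 chains took 82.5 to 193 FPKM per library.

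Fibrillar chains were led by COL5A2, with the chains of types I and III at a few FPKM. COL5A2 (chromosome 2, 119063656 to 119210952), a chain of the type V collagen that starts fibrils, had 94.0, 112 and 109 FPKM at 0 h, 92.2, 159 and 119.5 at 1.5 h, 98.1, 157 and 97.4 at 3.5 h and 99.3, 145 and 99.1 at 5.5 h. Number 2 was the highest at every time, and number 3 lay between the others at 0 and 1.5 h and just below number 1 at 3.5 and 5.5 h. COL27A1 (chromosome 2, 9374621 to 9516130), a fibrillar chain known from cartilage, had 22.9, 17.8 and 11.1 FPKM at 0 h, 17.5, 20.0 and 11.9 at 1.5 h, 19.9, 18.9 and 12.4 at 3.5 h and 16.4, 18.5 and 9.35 at 5.5 h. All 4 libraries numbered 3 lay below all of those numbered 1 and 2. COL5A1 (chromosome 3, 1382755 to 1496634), with which COL5A2 forms type V collagen, had 1.58, 1.73 and 0.115 FPKM at 0 h, 1.30, 2.06 and 3.96 at 1.5 h, 1.35, 1.56 and 0.0977 at 3.5 h and 1.10, 1.82 and 0.661 at 5.5 h. Number 3 was by far the lowest at 0 and 3.5 h and the highest at 1.5 h.

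COL1A1 (chromosome 11, 35993829 to 36010034) and COL1A2 (chromosome 4, 11656770 to 11692712) encode type I collagen, the main fibre of connective tissue. COL1A1 had 9.59, 7.99 and 1.65 FPKM at 0 h, 9.83, 6.34 and 10.6 at 1.5 h, 9.39, 6.43 and 1.98 at 3.5 h and 8.30, 5.92 and 3.30 at 5.5 h. COL1A2 had 3.70, 3.29 and 0.836 FPKM at 0 h, 3.47, 3.89 and 3.50 at 1.5 h, 3.27, 4.04 and 0.698 at 3.5 h and 3.10, 3.91 and 1.01 at 5.5 h. In both chains number 3 was low at 0, 3.5 and 5.5 h, whereas at 1.5 h it reached the level of the other numbers. COL3A1, the type III chain of soft tissues, is named outside the rule for named genes, since it lies tail to tail with COL5A2 at 18.5 kb, and its values had been seen. It had 2.87, 4.43 and 0.590 FPKM at 0 h, 1.996, 4.33 and 6.37 at 1.5 h, 2.33, 4.53 and 0.435 at 3.5 h and 2.06, 3.84 and 1.21 at 5.5 h. In number 3 COL3A1 was low at 0, 3.5 and 5.5 h, as the type I chains were and its neighbour was not. Number 2 was above number 1 at every time in COL3A1, as in COL5A2, and below it at every time in COL1A1. In COL1A2 number 2 was above number 1 at 1.5, 3.5 and 5.5 h. The other 5 fibrillar chains were below the level tested, COL5A3 at 0.463 FPKM, COL24A1 at 0.138 FPKM and the cartilage chains COL11A2, COL2A1 and COL11A1 at 0.0448, 0.0260 and 0.00223 FPKM. Summed fibrillar chains took 113 to 197 FPKM.

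Of the other collagens, COL8A1 led. COL8A1 (chromosome 1, 162488504 to 162547131), a short network-forming chain known from vessel walls and the cornea, had 158, 153 and 137 FPKM at 0 h, 147, 191 and 116 at 1.5 h, 166, 197 and 142 at 3.5 h and 161, 173 and 114 at 5.5 h. Number 3 was the lowest at each time. COL12A1 (chromosome 8, 1763844 to 1881188), which decorates the surface of fibrils, had 64.3, 65.5 and 85.4 FPKM at 0 h, 44.6, 65.7 and 92.4 at 1.5 h, 51.7, 59.1 and 73.5 at 3.5 h and 49.0, 61.5 and 51.9 at 5.5 h. Its number 3 was the highest at 0, 1.5 and 3.5 h and lay between the others at 5.5 h. COL18A1 (chromosome 1, 263365064 to 263422969), a basement membrane collagen and the source of endostatin, had 20.1, 18.8 and 24.0 FPKM at 0 h, 21.1, 19.6 and 21.0 at 1.5 h, 21.8, 20.4 and 25.1 at 3.5 h and 20.1, 20.1 and 20.2 at 5.5 h. It varied little, by 1.33-fold.

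COL17A1 (chromosome 22, 23669923 to 23710888), the transmembrane collagen of hemidesmosomes, had 20.3, 15.2 and 5.56 FPKM at 0 h, 18.3, 12.0 and 6.98 at 1.5 h, 17.9, 12.0 and 6.25 at 3.5 h and 18.2, 12.2 and 8.07 at 5.5 h. At each time number 1 was highest and number 3 lowest, with no overlap between the numbers. COL15A1 (chromosome 2, 48487007 to 48588324), a chain of the zone below basement membranes, had 2.60, 2.19 and 1.10 FPKM at 0 h, 2.45, 1.88 and 2.67 at 1.5 h, 2.42, 1.73 and 1.28 at 3.5 h and 1.79, 1.48 and 0.840 at 5.5 h. COL21A1 (chromosome 20, 4215443 to 4381408), a fibril-associated chain, had 2.88, 3.49 and 3.55 FPKM at 0 h, 3.18, 5.004 and 2.80 at 1.5 h, 3.49, 5.33 and 3.79 at 3.5 h and 3.96, 4.405 and 4.32 at 5.5 h. COL15A1 was low in number 3 except at 1.5 h, and COL21A1 was not. The 10 others of this class averaged 0.00169 FPKM (COL9A1) to 0.428 FPKM (COL9A2), among them COL6A2, a chain of the microfibrillar type VI, at 0.0639 FPKM. COL6A3 was not matched. Over all 16 members the class took 199.5 to 297 FPKM.

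Within a library, chains that assemble together kept fairly steady ratios for some partners and not for others. The ratio of COL4A4 to COL4A3 was 1.89 to 2.38 (median 2.20) over the 12 libraries, although each chain alone varied by 3.51-fold and 3.43-fold. COL4A1 over COL4A2 was 5.34 to 7.58 (median 5.79), and COL1A1 over COL1A2 was 1.51 to 3.26 (median 2.63). The lowest 3 ratios of COL1A1 to COL1A2 came from number 2, at 1.5, 3.5 and 5.5 h. In the hemidesmosome laminin, LAMB3 over LAMA3 was 0.763 to 1.36 (median 1.18) and fell below 1 only in number 3, at 0, 3.5 and 5.5 h. Ratios were loose where 1 partner was scarce, at 8.39 to 47.6 (median 12.3) for COL4A5 over COL4A6 and 30.2 to 996 (median 78.4) for COL5A2 over COL5A1. These ratios are descriptions, since both chains of a pair share a library and its depth.

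**Figure D2:**
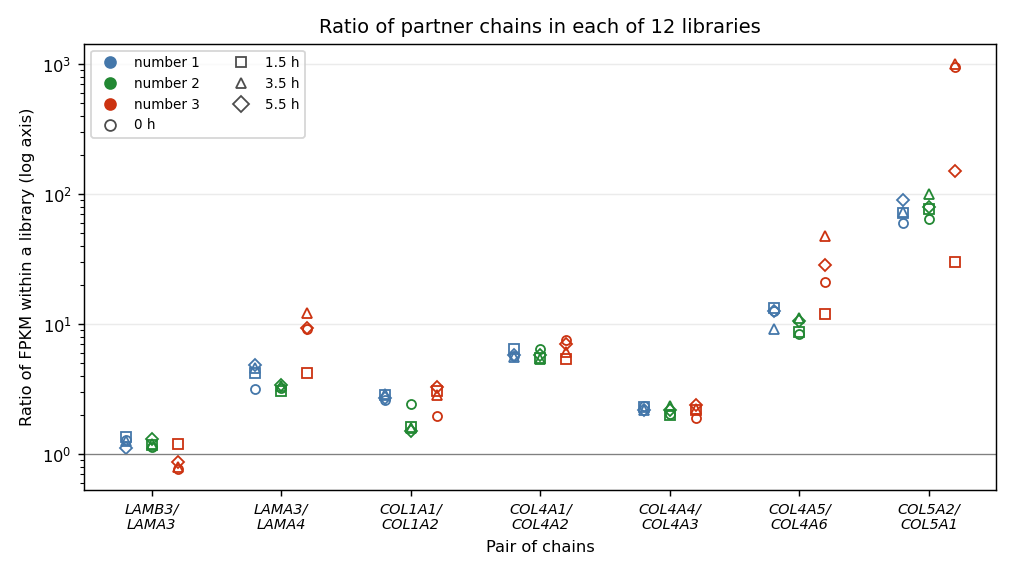
Ratio of the FPKM of partner chains within each of the 12 libraries, on a log axis, with a line at equal levels. Colour gives the replicate number and shape the time; COL4A4 over COL4A3 stays between 1.89 and 2.38, while COL5A2 over COL5A1 reaches 996 in number 3 at 3.5 h.

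The comparison of 1.5 h with 0 h asks whether any chain differed soon after oestradiol. Fibrillar and type IV chains had the larger differences, but none of the 25 tested chains passed. With edgeR's quasi-likelihood test at an adjusted p under 0.05, 0 of 25 chains were called (0% of all 12025 genes tested), and 0 of 25 had an unadjusted p under 0.05. With the replicate number as a block 0 of 25 were called (0.00832% of all genes), and DESeq2 and limma called 0 as well. Of the 25, 18 had a positive difference, where 6058 of all 12025 genes had one. The median log2 difference of the 25 was 0.12, beside 0.0014 over all genes.

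The fibrillar median at 1.5 h was 0.51, with 5 of 6 positive, and the type IV median was 0.47, with 5 of 5 positive. Laminins were evenly split, at a median of −1.3e−04, and the other collagens had 0.035. The differences came mostly from number 3. Median log2 ratios of same-numbered libraries, for numbers 1, 2 and 3, were −0.16, 0.22 and 2.43 for fibrillar chains. For type IV chains they were −0.17, 0.20 and 1.25. With numbers 1 and 2 alone and the block, the medians were −0.042 and 0.11. COL5A1 averaged 2.44 ± 1.37 FPKM at 1.5 h and 1.14 ± 0.894 FPKM at 0 h (SD, n = 3 each), a log2 difference of 1.12 ± 0.97 (SE). Its log2 ratios within numbers were −0.29, 0.25 and 5.11. COL1A1 averaged 8.93 ± 2.28 FPKM at 1.5 h and 6.41 ± 4.20 FPKM at 0 h (SD, n = 3 each), at 0.51 ± 0.64, and COL1A2 had 0.50 ± 0.67 and COL3A1 0.72 ± 0.83. In COL1A1 and COL3A1 the difference had the opposite sign with numbers 1 and 2 alone, at −0.12 and −0.25.

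COL4A5 averaged 8.17 ± 2.17 FPKM at 1.5 h and 5.33 ± 1.92 FPKM at 0 h (SD, n = 3 each), a log2 difference of 0.65 ± 0.47. Its log2 ratios within numbers were 3.2e-05, 0.64 and 1.33, so number 1 did not differ and numbers 2 and 3 were higher. COL4A2 and COL4A1 had 0.62 ± 0.39 and 0.47 ± 0.30. COL15A1, the largest of the other collagens, had 0.29 ± 0.37, with log2 ratios of −0.082, −0.22 and 1.28. LAMA5 was the 1 chain of 25 whose groups did not overlap, where 8.86% of all genes did not overlap. It averaged 29.0 ± 1.58 FPKM at 1.5 h and 33.7 ± 0.978 FPKM at 0 h (SD, n = 3 each), at −0.18 ± 0.085 (edgeR's quasi-likelihood test, adjusted p = 1.00). With the block COL4A5, COL4A2, COL4A1 and LAMA5 had an unadjusted p under 0.05, or 4 of 25 where 9.81% of all genes did, and the smallest adjusted p of the 25 was 0.489 in edgeR.

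Summed levels of contractile and stromal markers are given beside these differences. Of 3 tested smooth muscle markers and 3 tested fibroblast and stromal markers edgeR called 0 at 1.5 h (smallest adjusted p = 1.000 in both lists), and 0 with the block (smallest adjusted p = 0.484 and 0.489). Smooth muscle markers (7 of 8 matched) summed to 1247 to 2504 FPKM at 1.5 h and 267 to 1387 FPKM at 0 h, nearly all of it TAGLN, with CNN1 at 3.19 to 119 FPKM and ACTA2 at 5.39 to 30.9 FPKM over the 12 libraries. DES, MYH11 and ACTG2, which define mature smooth muscle, stayed at 0 to 0.0854 FPKM, 0.495 to 0.742 FPKM and 0 to 0.928 FPKM. Fibroblast and stromal markers (8 of 9 matched) summed to 1397 to 1744 FPKM at 1.5 h and 874 to 1621 FPKM at 0 h, nearly all of it VIM. Of their other genes FBLN1 was at 1.57 to 3.93 FPKM, THY1 at 0.313 to 4.09 FPKM and LUM at 0 to 3.05 FPKM. PDGFRA and POSTN were at 0.0927 to 0.536 FPKM and 0 to 0.387 FPKM, and PDGFRB and DPT at 0 to 0.0835 FPKM and 0 to 0.0913 FPKM. The part of such cells in the differences was not tested.

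**Figure D3:**
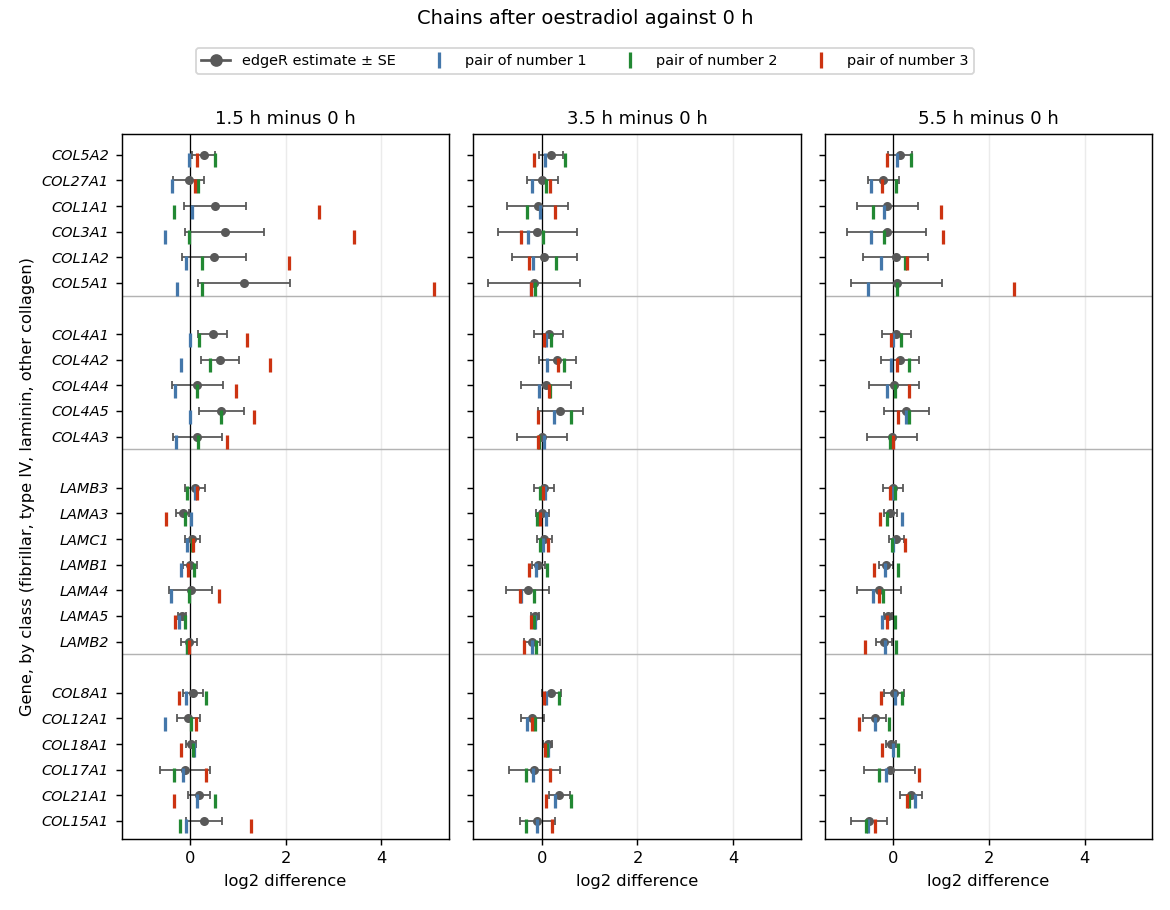
Log2 difference of tested chains at 1.5, 3.5 and 5.5 h minus 0 h. Points with bars are the edgeR estimate ± SE from 12 libraries, and coloured ticks are the log2 ratios of FPKM within each replicate number; at 1.5 h the tick of number 3 reaches 5.11 for COL5A1 while those of numbers 1 and 2 lie near 0.

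After 3.5 h the chains lay close to 0 h. None of 25 was called by edgeR (0% of all genes), none had an unadjusted p under 0.05, and with the block 0 of 25 were called (0% of all genes); DESeq2 and limma called 0. The median was 0.0044, beside 0.0046 for all genes, with 14 positive and 11 negative. By class the medians were −0.040 for fibrillar, 0.14 for type IV, −0.060 for laminin and 0.013 for other chains. COL4A5 averaged 6.85 ± 3.70 FPKM at 3.5 h and 5.33 ± 1.92 FPKM at 0 h (SD, n = 3 each), at 0.39 ± 0.47. COL21A1 averaged 4.20 ± 0.985 FPKM at 3.5 h and 3.31 ± 0.370 FPKM at 0 h (SD, n = 3 each), at 0.37 ± 0.23, and was higher in 3 of 3 numbers. LAMA4 averaged 50.7 ± 23.5 FPKM at 3.5 h and 63.5 ± 26.6 FPKM at 0 h (SD, n = 3 each), at −0.30 ± 0.46, and COL5A2 had 0.19 ± 0.24. LAMA4 was lower in each number, with log2 ratios of −0.44, −0.17 and −0.45.

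The groups of LAMA5 and LAMB2 did not overlap at 3.5 h, 2 of 25 chains where 7.02% of all genes did not. LAMA5 averaged 29.9 ± 1.31 FPKM at 3.5 h and 33.7 ± 0.978 FPKM at 0 h (SD, n = 3 each), at −0.15 ± 0.085. LAMB2, named outside the rule after its values were seen, averaged 19.3 ± 2.41 FPKM at 3.5 h and 22.6 ± 1.23 FPKM at 0 h (SD, n = 3 each), at −0.20 ± 0.17. Neither passed (edgeR's quasi-likelihood test, adjusted p = 1.00 for both).

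After 5.5 h again none of 25 was called by edgeR (0% of all genes), none had an unadjusted p under 0.05, and with the block 0 of 25 were called (0% of all genes); DESeq2 and limma called 0. The median was −0.051, beside 0.0089 for all genes, with 10 positive and 15 negative. Class medians were −0.042 for fibrillar, 0.058 for type IV, −0.088 for laminin, where 7 of 8 were negative, and −0.066 for other chains. COL15A1 averaged 1.37 ± 0.483 FPKM at 5.5 h and 1.96 ± 0.775 FPKM at 0 h (SD, n = 3 each), at −0.51 ± 0.37. Its log2 ratios within numbers were −0.54, −0.57 and −0.39, lower in 3 of 3. LAMA4 had −0.31 ± 0.46, COL4A5 0.27 ± 0.47 and COL27A1 −0.22 ± 0.33.

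At 5.5 h the groups of 2 chains did not overlap, where 6.94% of all genes did not. COL12A1 averaged 54.1 ± 6.52 FPKM at 5.5 h and 71.7 ± 11.9 FPKM at 0 h (SD, n = 3 each), at −0.40 ± 0.24, and all 3 libraries at 5.5 h were below the 0 h libraries. COL21A1 averaged 4.23 ± 0.237 FPKM at 5.5 h and 3.31 ± 0.370 FPKM at 0 h (SD, n = 3 each), at 0.36 ± 0.23, and all 3 were above. Both had an unadjusted p under 0.05 with the block, or 2 of 25 where 6.51% of all genes did, and neither passed (adjusted p = 0.759 for both in edgeR with the block). In the test among all 4 times, which asks for any difference, edgeR called 0 of 25 chains without the block (0% of all genes) and 0 of 25 with it (0.0166% of all genes). None had an unadjusted p under 0.05 in either fit, and DESeq2 and limma called 0. In the authors' deposited comparison tables no chain had a q-value under 0.05 at any time. COL24A1 at 1.5 h was the 1 chain marked as significant in the authors' deposited table, where 123 of 18340 genes were marked. COL24A1 averaged 0.138 FPKM, below the level tested. It had 0.139, 0.103 and 0.0530 FPKM at 0 h and 0.107, 0.186 and 0.407 at 1.5 h, where number 3 was highest. At 1.5 h COL4A5, COL4A2, COL24A1 and COL4A1 had a p-value under 0.05 there, 4 of 44 chains where 1.67% of all 18340 genes did. Their log2 ratios were 0.61, 0.58, 1.25 and 0.43 in the authors' deposited table. At 3.5 and 5.5 h no chain had a p-value under 0.05 there, where 0.573% and 0.578% of all genes did.

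**Figure D4:**
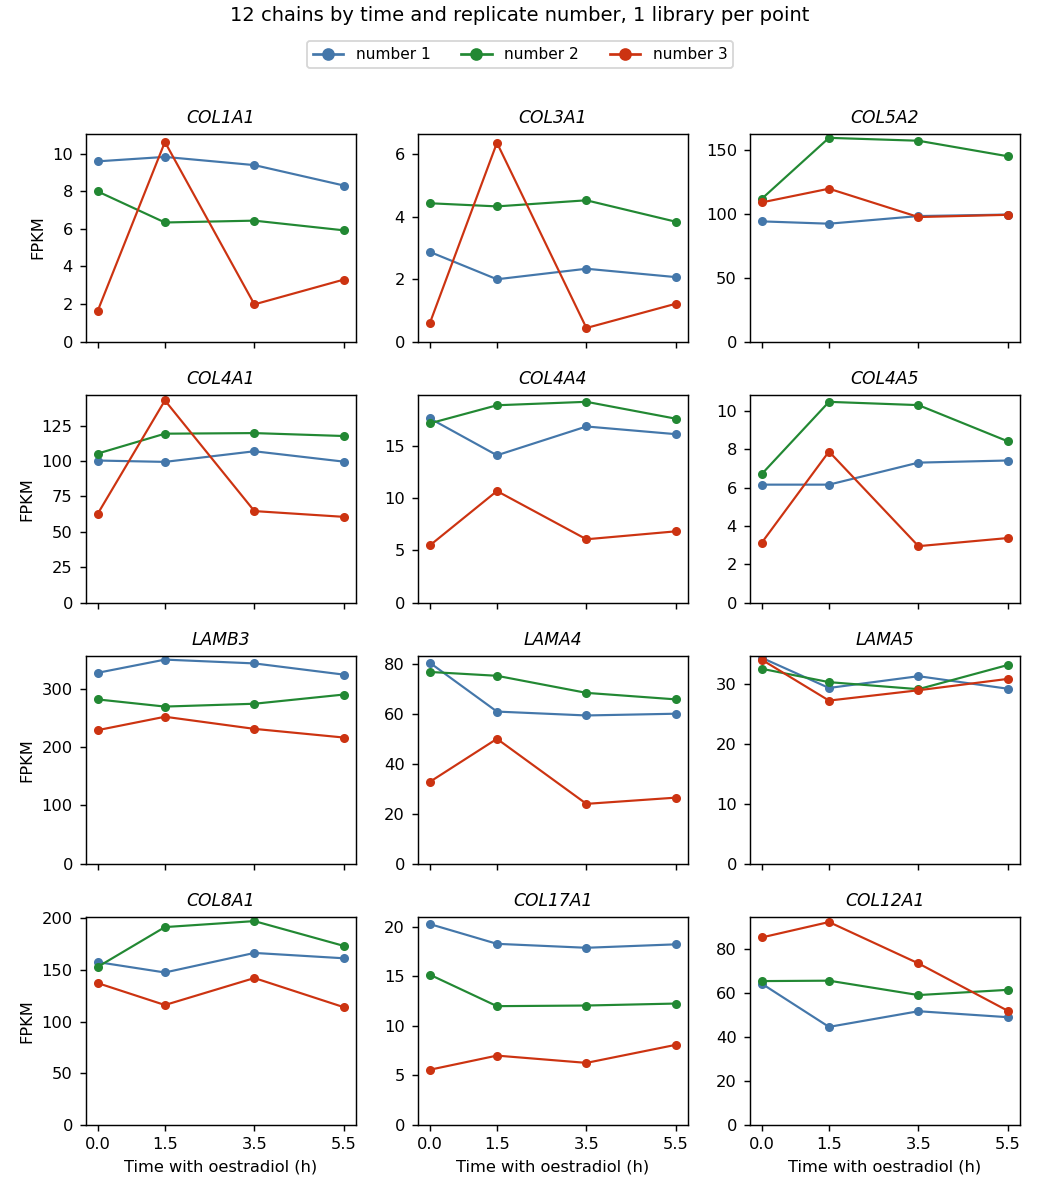
FPKM of 12 chains against hours with oestradiol, 1 line per replicate number, 1 library per point, axes from 0. In COL1A1, COL3A1 and COL4A1 the line of number 3 lies low at 0, 3.5 and 5.5 h and peaks at 1.5 h, while COL17A1 keeps numbers 1, 2 and 3 in the same order at all times.

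Chains differed among the replicate numbers where they did not pass among the times, and in most of them number 3 was the lowest. In a test among the 3 numbers that allowed for time, chosen after the data had been seen, edgeR called 12 of 25 chains, or 48%, where 35.5% of all 12025 genes were called. Number 3 was lowest in 10 of the 12, and in 1945 of the 4265 called among all genes. Without the 1.5 h library numbered 3, 22 of 25 chains were called, or 88%, where 48.2% of all genes were, and number 3 was lowest in 18 of the 22, and in 2723 of the 5794 called among all genes. That library was left out because chains such as COL1A1 and COL4A1 were not low in it. The fit without it therefore gives no separate support for a low number 3, here or in the chains below. The median log2 difference of the 25 chains, with all libraries, was −0.53 for number 3 against number 1 and −0.50 against number 2, beside −0.0077 and −0.0072 for all genes. What the number stands for is not given in the labels.

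COL17A1 had the smallest p among the called chains. It averaged 6.72 FPKM in number 3, against 18.7 in number 1 and 12.9 in number 2, log2 differences of −1.49 ± 0.12 against number 1 and −0.95 ± 0.12 against number 2 (edgeR's quasi-likelihood test, adjusted p = 3.6e-04). It was called without the 1.5 h library numbered 3 too (edgeR, adjusted p = 8.2e-05). LAMB3 and LAMA3 of the hemidesmosome laminin differed less. LAMB3 averaged 233 FPKM in number 3, against 337 in number 1 and 279 in number 2, at −0.55 ± 0.068 against number 1 and −0.28 ± 0.068 against number 2 (edgeR, adjusted p = 0.00181). LAMA3 was not called with all libraries (edgeR, adjusted p = 0.161) and was called without the 1.5 h library numbered 3 (edgeR, adjusted p = 0.0400). Number 3 was then close to number 1, at 0.019 ± 0.079, and above number 2, at 0.24 ± 0.079.

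Among the other laminins, LAMA4 averaged 33.4 FPKM in number 3, against 65.4 in number 1 and 71.7 in number 2, at −1.02 ± 0.17 against number 1 and −1.16 ± 0.17 against number 2 (edgeR, adjusted p = 0.00269). LAMC1 averaged 84.8 FPKM in number 3, against 107 in number 1 and 103 in number 2, and was called too (edgeR, adjusted p = 0.00755). LAMA5 and LAMB1 were called in neither fit, LAMA5 at −0.056 ± 0.064 against number 1 and −0.065 ± 0.064 against number 2. The chains of the kidney-type network were low together: COL4A3 had −1.14 ± 0.17 against number 1 and −1.38 ± 0.17 against number 2, COL4A4 −1.21 ± 0.18 against number 1 and −1.36 ± 0.18 against number 2 and COL4A5 −0.76 ± 0.25 against number 1 and −1.13 ± 0.25 against number 2, all called (edgeR, adjusted p = 0.00174, 0.00190 and 0.0178). COL4A1 and COL4A2 were called only without the 1.5 h library numbered 3, at −0.72 ± 0.062 against number 1 and −0.90 ± 0.062 against number 2 for COL4A1 and −0.97 ± 0.094 against number 1 and −1.17 ± 0.095 against number 2 for COL4A2.

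Fibrillar chains differed by number in their own ways. COL27A1 had −0.79 ± 0.098 against number 1 and −0.77 ± 0.097 against number 2 and COL1A2 −1.41 ± 0.37 against number 1 and −1.57 ± 0.38 against number 2, both called with all libraries (edgeR, adjusted p = 0.00114 and 0.0220). COL5A2 was also called (edgeR, adjusted p = 0.00761), with number 2 highest and number 3 between, at 0.13 ± 0.11 against number 1 and −0.44 ± 0.11 against number 2. COL5A1, COL1A1 and COL3A1 were called only without the 1.5 h library numbered 3, and COL5A1 and COL3A1 then had the largest differences from number 2 of the 25 chains. In these chains, as in COL4A1 and COL4A2, that library was not low, so the calls rest on leaving it out. COL5A1 lay at −2.47 ± 0.53 against number 1 and −2.86 ± 0.53 against number 2, and COL3A1 at −1.74 ± 0.30 against number 1 and −2.64 ± 0.31 against number 2. COL8A1 averaged 127 FPKM in number 3, against 158 in number 1 and 179 in number 2 and was called (edgeR, adjusted p = 0.00708). COL12A1 was the called chain with number 3 highest, at 0.50 ± 0.14 against number 1 and 0.23 ± 0.14 against number 2 (edgeR, adjusted p = 0.0491).

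Markers of other cell types were also compared among the numbers. With all libraries edgeR called 0 of 3 smooth muscle markers, 1 of 3 fibroblast and stromal markers, 3 of 3 endothelial markers and 6 of 6 epithelial markers, where 35.5% of all genes were called. Without the 1.5 h library numbered 3 it called 3, 2, 3 and 5 of these, where 48.2% of all genes were. Smooth muscle markers summed to 267, 2504, 408 and 709 FPKM at 0, 1.5, 3.5 and 5.5 h in number 3, against 1087 to 1247 FPKM in number 1 and 1387 to 2064 FPKM in number 2. Fibroblast and stromal markers summed to 783 to 1397 FPKM in number 3, against 1333 to 1607 FPKM in number 1 and 1621 to 1808 FPKM in number 2. Both sums, nearly all TAGLN and VIM, were low in number 3 at 0, 3.5 and 5.5 h. Endothelial markers (6 of 7 matched) summed to 15.3 to 18.5 FPKM in number 3. In number 1 they summed to 25.4 to 32.7 FPKM, and in number 2 to 26.6 to 32.7 FPKM. Number 3 was lowest in each of the 3 called, VWF, CDH5 and EMCN. Over the 12 libraries these were at 4.73 to 14.9 FPKM, 2.56 to 10.3 FPKM and 3.41 to 11.1 FPKM. KDR was at 0.142 to 1.51 FPKM, PECAM1 at 0 to 0.201 FPKM and TEK at 0 to 0.0883 FPKM. The part of these markers in the differences among chains was not tested. Of the 6 epithelial markers, number 3 was highest in 4 and lowest in 2. EPCAM was higher in number 3 than in numbers 1 and 2 at every time, and KRT7 and CLDN4 were lower in number 3 at 0, 3.5 and 5.5 h.

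**Figure D5:**
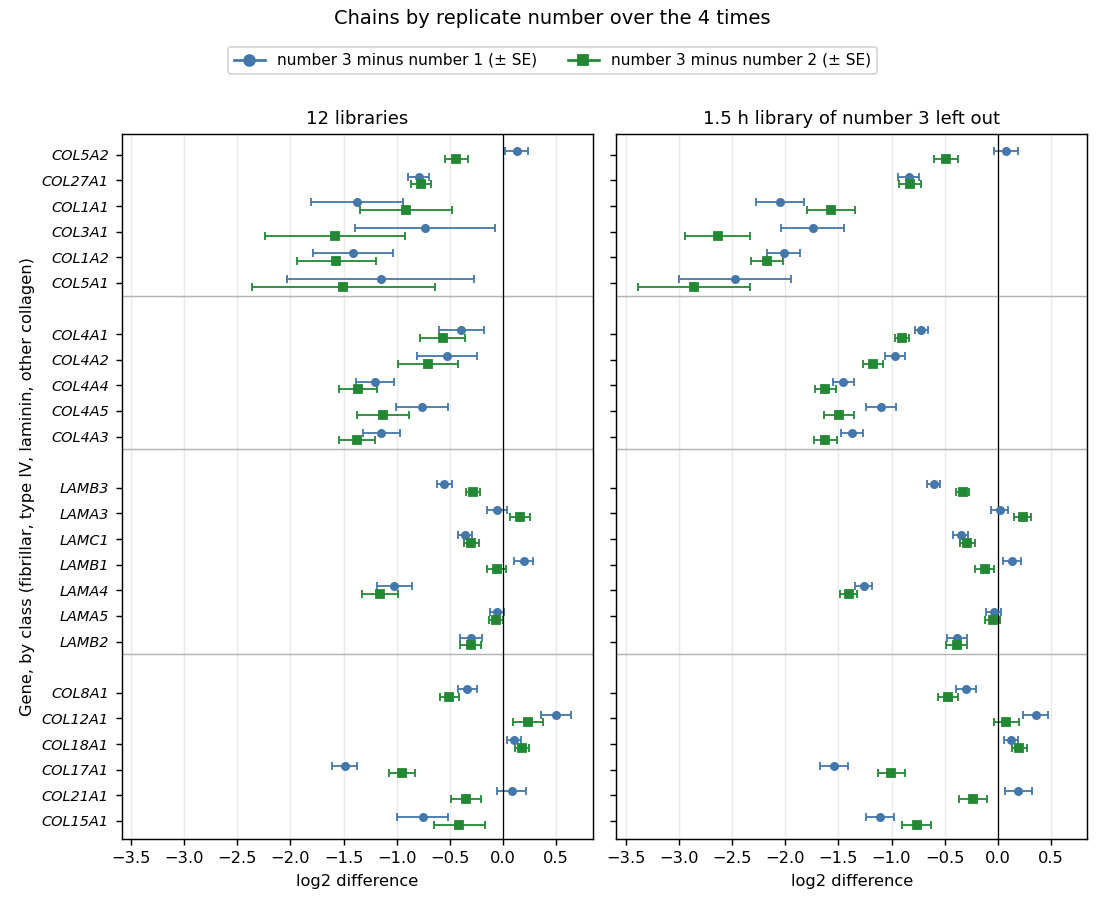
Log2 difference of number 3 minus number 1 and of number 3 minus number 2 for tested chains, edgeR estimates ± SE over the 4 times, with all 12 libraries on the left and without the 1.5 h library numbered 3 on the right. Most points lie left of 0; those of COL1A1, COL3A1 and COL5A1 move further left, with shorter bars, on the right.

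Genes that build, bind and break down these chains did not pass at any time either. Of the enzymes and chaperones that modify collagen and join its fibres, 26 of 30 were tested, and edgeR called 0 higher and 0 lower at each of the 3 times. Their median log2 differences were 0.14 at 1.5 h (22 of 26 positive), −0.036 at 3.5 h and −0.058 at 5.5 h, beside at most 0.0089 over all genes. At 1.5 h 6058 of all 12025 genes were positive. The difference at 1.5 h came mostly from number 3: the median log2 ratios of same-numbered libraries were 0.024, −0.0036 and 0.63 for numbers 1, 2 and 3. P4HB, a subunit of the prolyl hydroxylase that lets the helix form, had 498, 515 and 501 FPKM at 0 h, 492, 463 and 505 at 1.5 h, 466, 464 and 446 at 3.5 h and 485, 459.5 and 439.5 at 5.5 h. It varied little among libraries. PPIB, a proline isomerase that helps folding, was at 341 to 447 FPKM, and LOXL4, a cross-linking enzyme of the lysyl oxidase family, at 266 to 474 FPKM.

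Of the receptors, 10 of 13 were tested and 0 were called at any time, with medians of 0.059, 0.070 and 0.029 at 1.5, 3.5 and 5.5 h. ITGB1, the beta subunit shared by most of these integrins, was at 457 to 614 FPKM, ITGA3, its laminin-binding partner, at 208 to 280.3 FPKM, and BCAM, a receptor of LAMA5, at 139 to 277 FPKM. ITGA6 and ITGB4, the integrin of hemidesmosomes, were at 73.8 to 97.9 FPKM and 82.6 to 134 FPKM, named here beside their ligand after their values were seen. Other basement membrane proteins had 8 of 15 matched genes tested and 0 called, with medians of 0.10, −0.080 and −0.086. The matricellular protein SPARC, which binds collagen, had 310.3, 366 and 207 FPKM at 0 h, 338, 429 and 730.0 at 1.5 h, 318, 423 and 197 at 3.5 h and 338, 449 and 173 at 5.5 h. Number 3 was lowest at 0, 3.5 and 5.5 h and highest at 1.5 h. AGRN and PXDN, a heparan sulphate proteoglycan and the enzyme that cross-links type IV collagen, were at 61.4 to 100.1 FPKM and 35.9 to 63.4 FPKM. NID1 and NID2, which link laminin to type IV collagen, were at 0 to 0.213 FPKM and 0 to 0.170 FPKM, named after their values were seen.

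Of 17 matched proteases and inhibitors of the matrix, 13 were tested and 0 were called, with medians of 0.063, −0.053 and 0.056. MMP13, a collagenase, had 1904, 1822 and 494 FPKM at 0 h, 1950.4, 2043 and 811 at 1.5 h, 1858, 2070.3 and 596 at 3.5 h and 1938, 1821 and 1131 at 5.5 h. The libraries numbered 3 lay below those of numbers 1 and 2 at every time (edgeR, adjusted p = 0.00156 among the numbers). TIMP3 and TIMP1, inhibitors of such proteases, were at 144 to 296 FPKM and 127 to 187 FPKM. Among the numbers, where 35.5% of all genes were called, edgeR called 12 of 26 maturation genes, 7 of 10 receptors, 6 of 8 other basement membrane genes and 8 of 13 proteases and inhibitors, with number 3 lowest in 9, 4, 5 and 8 of these, beside 1945 of the 4265 called among all genes.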

How the data were processed

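Counts and FPKM per gene and library were deposited by the authors, per the file headers. TopHat2 2.0.9 and Cufflinks appear in the submitters' processing notes with no role, and the genome build is not given in the sources used here. The authors' deposited comparison tables hold log2 ratios of mean FPKM and a p-value and q-value each, by an unstated test. In single-transcript genes with at least 50 counts, FPKM matched count over length within 2% for 99.1% of 135807 values. Another 54 columns of per-sample values stayed unused. Names came from the authors' table, and 1145 of 4788 genes without a symbol were named by RefSeq (assembly ARS-UI_Ramb_v3.0). Members were matched by the authors' names alone. The RefSeq names served the check of excluded chains and the matching of the pathway and marker lists.

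Counts were tested with edgeR 4.0.16 in R 4.3.3 (quasi-likelihood F test, TMM, 1 model of the 4 times over 12 libraries, 12025 genes at or above a mean of 1 FPKM, Benjamini-Hochberg adjustment over all of them, called under an adjusted p of 0.05), after a check on simulated data. The test among numbers used a model of number and time. Alternatives used DESeq2 1.42.0 and limma 3.58.1 on log2(FPKM + 1). Deviations from group means correlated at 0.218 to 0.705 in all 18 pairs of same-numbered libraries and at −0.600 to 0.331 in the 36 other pairs, and the numbers served as a replicate block. Chains with a mean FPKM of at least 10 (at most 6 a class), the largest differences per class and named partners are given in every library. A member that enters the counts is not reported here by itself. Members and lists were chosen with earlier results of these data known.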

Additional observations from a re-analysis of the deposited data

How the results depend on the processing

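No member was called against 0 h or among the 4 times under any alternative: the replicate block in edgeR or DESeq2, DESeq2 size factors, DESeq2, limma at pseudocounts of 1 or 0.1, no filter, a mean FPKM of at least 5, numbers 1 and 2 alone, or each library left out in turn (0 in each). With the replicate block the count of called members was 0 in each comparison, as without it, so the block changed no call. Signs turned with numbers 1 and 2 alone and the block at 1.5 h for COL1A1 (−0.12), COL3A1 (−0.25) and COL15A1 (−0.12), and without the 1.5 h library numbered 3 and with the block for COL3A1 (−0.14) and COL15A1 (−0.064); the cause was not tested. With 1 library left out at a time, log2 differences ranged over −0.0044 to 0.54 for COL15A1 at 1.5 h, −0.61 to 0.043 for LAMA4, −0.081 to 0.32 for COL5A2 and −0.033 to 0.75 for COL4A5 at 3.5 h, and −0.46 to 0.040 for COL27A1, −0.63 to 0.0023 for LAMA4 and −0.0045 to 0.58 for COL4A5 at 5.5 h. The other 12 differences printed kept their sign under every alternative. Of 54 differences not printed (−0.16 to 0.18 among those that turned), 45 changed sign in at least 1 setting and none was called. The count of chains called among the 3 numbers ranged over 9 to 22 of 25 with 1 library left out, where 17.2% to 48.2% of all genes were called. The 22 came without the 1.5 h library numbered 3, where 48.2% of all genes were called. DESeq2 called 17 of 25 (43.7% of all genes), limma 13 of 25 (35.5%) and edgeR with DESeq2 size factors 12 of 25 (35.7%). With no filter edgeR called 15 of 44 (21.1%), and at a mean FPKM of at least 5 it called 11 of 20 (37.6%). With 3 libraries a time, and numbers that differ more than times, small changes with time were not detectable. Larger ones could be missed too in chains with a large SE, such as COL5A1 at 1.5 h (1.12 ± 0.97, not called).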
